A study of Rattus norvegicus with 12 samples.

Results

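The genes described here are 9 of astrocyte transport and homeostasis: Aqp4, Kcnj10, Gja1, Gjb6, Slc1a2, Slc1a3, Glul, Aldh1l1 and S100b. Most serve to move, buffer or convert water, potassium, glutamate or small metabolites, while Aldh1l1 encodes a folate enzyme and S100b a calcium-binding protein. Membership goes by symbol with no threshold on a measured value, although earlier results of these data were known when the genes were picked, and each is listed once among the 34525 genes of the table. Expression was measured by RNA sequencing of total RNA from 12 rat brain samples of a study of lasting orofacial pain. They form 4 groups of 3: thalamus CFA, thalamus saline, RVM CFA and RVM saline, where the RVM is the rostral ventral medulla, a brainstem source of descending pain control, and saline is 0.9% sodium chloride. The letters CFA usually stand for complete Freund's adjuvant in rodent pain work, an emulsion that causes lasting local inflammation. The labels give no strain, genotype, sex, age, dose, injection site or time. Nor do they state whether each sample is a different animal. The p-values therefore reflect the variation among these samples, which may be technical.

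Astrocytes take up the glutamate and potassium that neurons release. Glutamate enters mainly through 2 transporters and is converted to glutamine for return to neurons, while potassium enters through inward-rectifying channels and spreads through a network of cells joined by connexin gap junctions. Water moves through channels that are densest on the endfeet around blood vessels. In bulk tissue, fewer astrocytes and less RNA per astrocyte cannot be told apart.

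The genes were listed with Ensembl rat identifiers and coordinates, on a genome build that the sources used here do not state. In that list the water channel Aqp4 is ENSRNOG00000016043 (chromosome 18, 6765945 to 6782996), Kcnj10 is ENSRNOG00000007705 (chromosome 13, 90723092 to 90752581), Gja1 is ENSRNOG00000000805 (chromosome 20, 37876650 to 37889089) and Gjb6 is ENSRNOG00000022116 (chromosome 15, 37400889 to 37410848). The transporter genes Slc1a2 and Slc1a3 are ENSRNOG00000005479 (chromosome 3, 92640752 to 92665644) and ENSRNOG00000016163 (chromosome 2, 57860834 to 57935363). Glul is ENSRNOG00000049560 (chromosome 13, 71331052 to 71340229), Aldh1l1 is ENSRNOG00000047023 (chromosome 4, 123516788 to 123557501) and S100b is ENSRNOG00000001295 (chromosome 20, 13130636 to 13142856). All are protein coding, and each value covers the transcript bases of the listed gene model, without separating coding from untranslated parts. The listed Slc1a2 model holds 882 bases of transcript over 24893 bases, whereas RefSeq gives the gene a span of 130337 bases on GRCr8. The Slc1a2 level relative to other genes therefore rests on a partial model. A gene model without a name on the same strand, 78350 bases upstream, averaged 36.4 ± 2.94 FPKM in thalamus CFA, 38.3 ± 6.51 in thalamus saline, 33.8 ± 9.05 in RVM CFA and 32.3 ± 4.11 in RVM saline (SD, n = 3 each), and whether it belongs to Slc1a2 was not tested.

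The 250 bases before the transcription start are shown for 2 members that differed between the regions in opposite directions, Kcnj10, lower in thalamus, and Slc1a3, higher there, at the start that lies outermost in each gene. They come from the RefSeq promoter table for GRCr8, at chr13:87334260-87334509 on the plus strand for Kcnj10 and chr2:59557809-59558058 on the minus strand for Slc1a3, and read 5′ to 3′. Capitals mark GGGCGG, the core of the GC box, on either strand.
Kcnj10: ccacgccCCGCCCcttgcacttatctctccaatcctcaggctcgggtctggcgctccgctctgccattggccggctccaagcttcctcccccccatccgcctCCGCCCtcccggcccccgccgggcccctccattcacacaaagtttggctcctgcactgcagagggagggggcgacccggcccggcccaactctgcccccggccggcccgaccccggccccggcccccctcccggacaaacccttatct
Slc1a3: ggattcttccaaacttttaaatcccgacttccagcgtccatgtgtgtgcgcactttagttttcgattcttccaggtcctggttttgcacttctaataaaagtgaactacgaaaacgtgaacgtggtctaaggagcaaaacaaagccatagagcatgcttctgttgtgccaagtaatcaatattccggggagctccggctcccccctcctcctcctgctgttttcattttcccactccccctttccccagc
The Kcnj10 window held 72.4% G and C with matches that begin 243 and 148 bases before the start, and the Slc1a3 window held 48.0% G and C with no match, beside a median of 51.2% over all windows. All 9 genes had entries, with 15 windows in all, of which 7 in 5 genes held GGGCGG. That is 46.7% of these windows, against 30.5% of 33469 windows in the table. The Slc1a3 windows, which begin at 59557788, 59557798 and 59557809, largely overlap, so the 15 windows are not all separate sequences. The STAT-type motif TTCNNNGAA was in 0 of the 15 windows and in 7.67% of all windows. The SOX-type motif ACAAT was in 1 of the 15, that of S100b, and in 30.0% of all windows. Both strands were searched and none of the 3 motifs overlaps another in these windows. A match is a description of the letters and not of binding.

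Each library held 14.94 to 19.24 M reads assigned to genes, and the 9 genes held 239 to 62696 reads in a library, and replicates of a group differed by 7.83 to 66.3 times the sampling noise of reads (chi-square per degree of freedom). Tissue labels were checked against marker lists: the summed level of 6 thalamic genes was 111 to 433 FPKM (fragments scaled to gene length and library size) in the CFA libraries of thalamus and 311 to 750.1 in its saline libraries, against 63.5 to 71.0 in RVM CFA and 66.0 to 79.9 in RVM saline. Of 6 hindbrain genes, up to 4 were at 0 in thalamus libraries, and their sum there was at most 1.17 FPKM, against 118 to 159 in RVM libraries. Part of the extraction text in the labels speaks of retinas. Within thalamus the libraries were uneven. Ttr, a choroid plexus gene, stood at 9934, 2361 and 5.50 FPKM in CFA 1, 2 and 3 and at 18.0, 2.31 and 4.91 in saline 1, 2 and 3. The thalamic transcription factor gene Tcf7l2 was lowest in CFA 1 and saline 1, at 28.9 and 44.9 FPKM, and Slc17a7, a vesicular glutamate transporter gene strong in cortex, was highest in these, at 225 and 100.1 FPKM. The log2 differences below are on the log2(FPKM + 1) scale from limma, with SE, and p-values are adjusted over all genes tested; a call is an adjusted p below 0.05.

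All 9 genes were expressed in every library. S100b and Glul stood highest in all 4 groups and Aldh1l1 lowest, as levels per length. S100b averaged 833 ± 98.1 FPKM in thalamus CFA, 843 ± 59.2 in thalamus saline, 2177 ± 163 in RVM CFA and 2135 ± 182 in RVM saline, whereas Aldh1l1 averaged 5.76 ± 0.995, 7.22 ± 0.757, 7.09 ± 1.57 and 10.5 ± 1.56 FPKM in the same groups (SD, n = 3 each). In between, the order of levels differed between regions. Slc1a3 lay above Kcnj10 and Gjb6 in every thalamus library, while in the RVM Slc1a3, Gja1 and Kcnj10 were close, with means of 105, 114 and 123 FPKM in RVM CFA and 105, 119.9 and 122 in RVM saline.

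**Figure D1:**
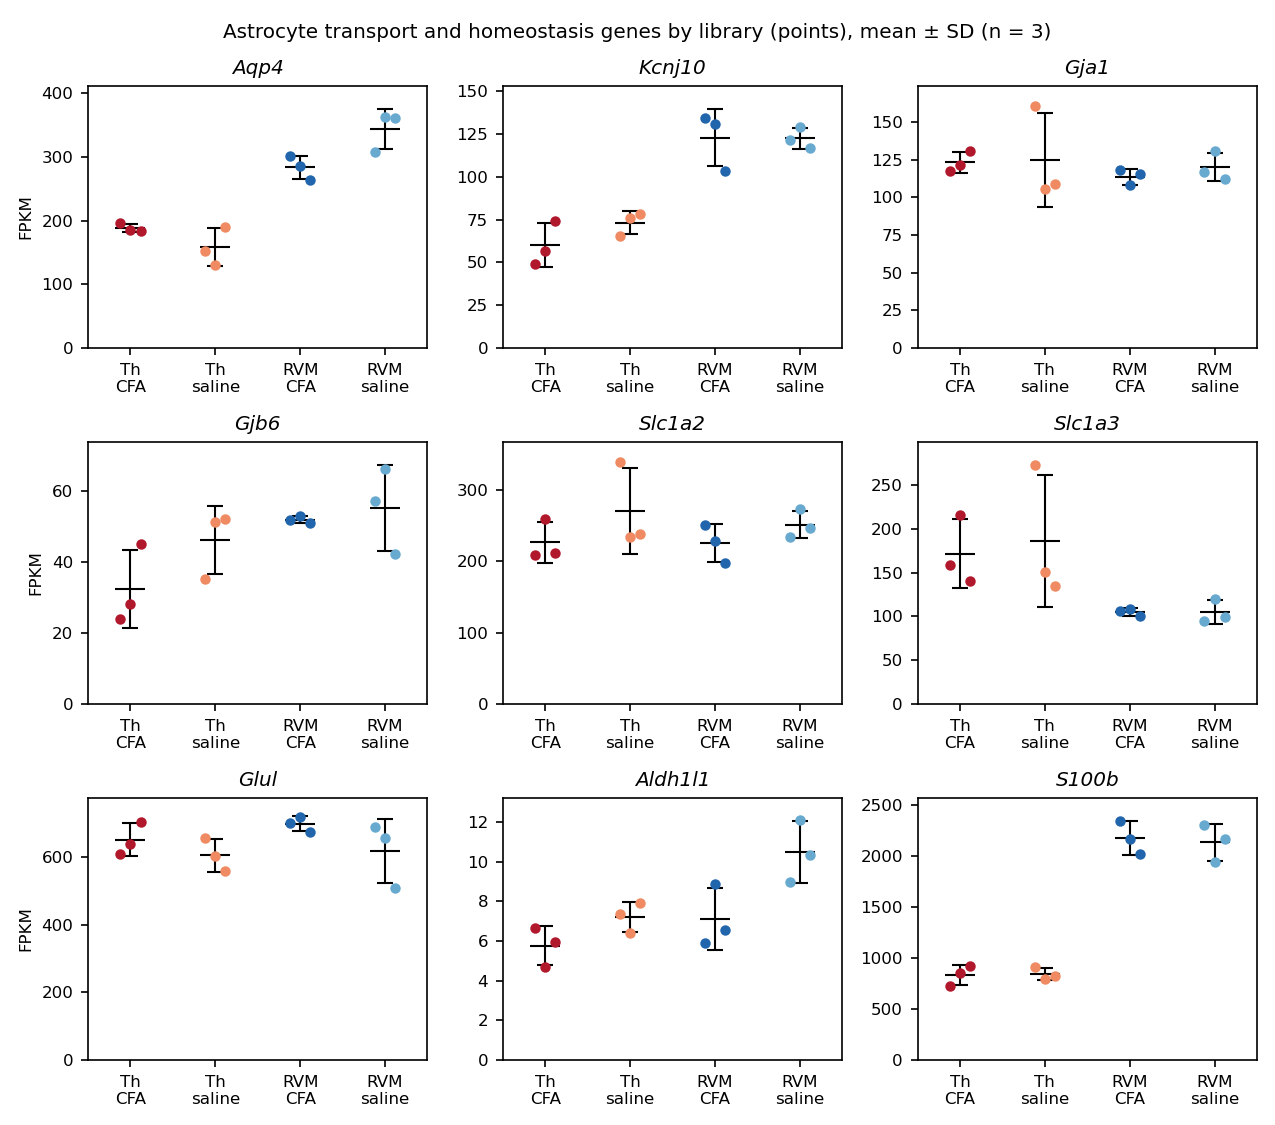
Level of each gene in FPKM (vertical axis, from 0) in the 12 libraries, with thalamus (Th) left of RVM and CFA left of saline; points are libraries, lines and bars the mean ± SD of 3. S100b and Aqp4 of thalamus libraries lie below those of RVM libraries, Slc1a3 lies above, and CFA and saline points of the thalamus overlap for every gene.

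None of the 9 genes had a called difference between CFA and saline in either region by limma. In thalamus, 0 of 9 passed by limma, beside 4.11% of 14722 genes tested (3.84% higher and 0.272% lower in CFA). None reached an unadjusted p of 0.05, which 21.4% of genes did, and limma-voom on reads gave 0 adjusted and 1 unadjusted. The log2 differences ran between -0.53 for Gjb6 and 0.27 for Aqp4, with adjusted p of 0.29 to 0.989. CFA and saline libraries overlapped for all 9, while the groups did not overlap for 29% of genes. The median over the 9 was -0.07, beside -0.08 over all genes. In RVM, 0 of 9 passed by limma, as did 0% of 14289 genes, while without RVM CFA 2 the count over all genes was 484 and still 0 of the 9. At an unadjusted p of 0.05 there were 2, beside 14.2% of genes, and voom gave 0 adjusted and 2 unadjusted. The interaction of region and CFA was called for 0 of 9 genes and for 0% of 13738 by limma. A single member had an unadjusted p below 0.05, beside 11.4% of genes, and voom gave 0 adjusted and 1 unadjusted.

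In the same thalamus libraries, genes listed as markers of reactive astrocytes were higher with CFA. Of 10 listed genes 9 rose, beside 3.84% of all genes, with a median log2 difference of 2.47. Microglial genes rose in the same libraries, 5 of 6 listed, with a median of 1.43 and a summed level of 481 to 648 FPKM in CFA and 119 to 141 in saline. C1qa, a complement gene of microglia, differed by 2.66 ± 0.185 on the log2 scale (adjusted p = 0.00108, limma). Of 8 genes of meninges and mural cells 0 passed, with a median of 1.33, and their sum was 42.3 to 205 FPKM in CFA and 27.1 to 46.9 in saline. None of these microglial or meningeal genes was at 0 in any library. Choroid plexus and ependymal genes summed to 10244, 2471 and 21.2 FPKM in CFA 1, 2 and 3, against 8.72 to 42.0 in saline. The reactive list summed to 1727, 1078 and 1058 FPKM in these CFA libraries, against 147 to 254 in saline. The part of microglial, meningeal and choroid plexus genes' cells in the reactive list's values was not tested. Lcn2, which encodes the iron-carrying acute-phase protein lipocalin 2, averaged 319 ± 53.8 FPKM in CFA and 1.12 ± 0.58 in saline thalamus, and the ferroxidase gene Cp averaged 39.9 ± 9.17 and 2.70 ± 1.21 FPKM in these groups (SD, n = 3 each). The metalloreductase gene Steap4 differed by 2.55 ± 0.157 and the protease inhibitor gene Timp1 by 4.12 ± 0.47 on the log2 scale, with adjusted p by limma of 0.00076 and 0.0059. Of 12 other astrocyte identity genes 0 passed in thalamus, with a median of -0.26, beside -0.08 over all genes. Over all genes 4.11% passed and 0.272% were lower, shares at which 0 of 12 is not unusual. The 2 with the smallest p were Ntsr2, at 86.3 ± 3.19 FPKM in CFA and 110.9 ± 8.13 in saline, and the transcription factor gene Sox9, at 8.94 ± 1.71 in CFA and 5.29 ± 1.81 in saline, with adjusted p of 0.105 and 0.177. The reactive list was chosen with this result known. In RVM 0 of 7 reactive genes tested passed, as did 0% of all genes, with a median of 1.02. Lcn2 ranged over 12.8 to 583 FPKM among the RVM CFA libraries, against 1.39 to 3.23 in RVM saline. RVM CFA 2 stood apart from the other RVM CFA libraries, with a mean log2 level of the reactive list of 3.56, against 4.89 in RVM CFA 1 and 4.82 in RVM CFA 3, and a microglial sum of 219 FPKM, against 711 and 571 in these.

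Between the regions, 4 of the 9 genes were called in saline, all lower in thalamus, beside 22.7% of 14396 genes lower and 22.6% higher (45.3% in either direction). In CFA 5 of 9 were called, with 4 lower and 1 higher in thalamus, beside 18.1% lower, 14.9% higher and 33% in either direction of 14787 genes. Aqp4, Kcnj10 and S100b were lower in both treatments. Aldh1l1 was called in saline alone and Gjb6 and Slc1a3 in CFA alone, but the interaction, which tests the difference between the treatments, was called for none of them. In each treatment the thalamus and RVM libraries did not overlap for 4 members lower and 1 higher, beside 29.9% lower and 28.9% higher of all genes in saline, and 27.3% and 24.4% in CFA. The medians over the 9 were -0.25 in both treatments, beside -0.02 over all genes in saline and 0.00 in CFA.

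**Figure D2:**
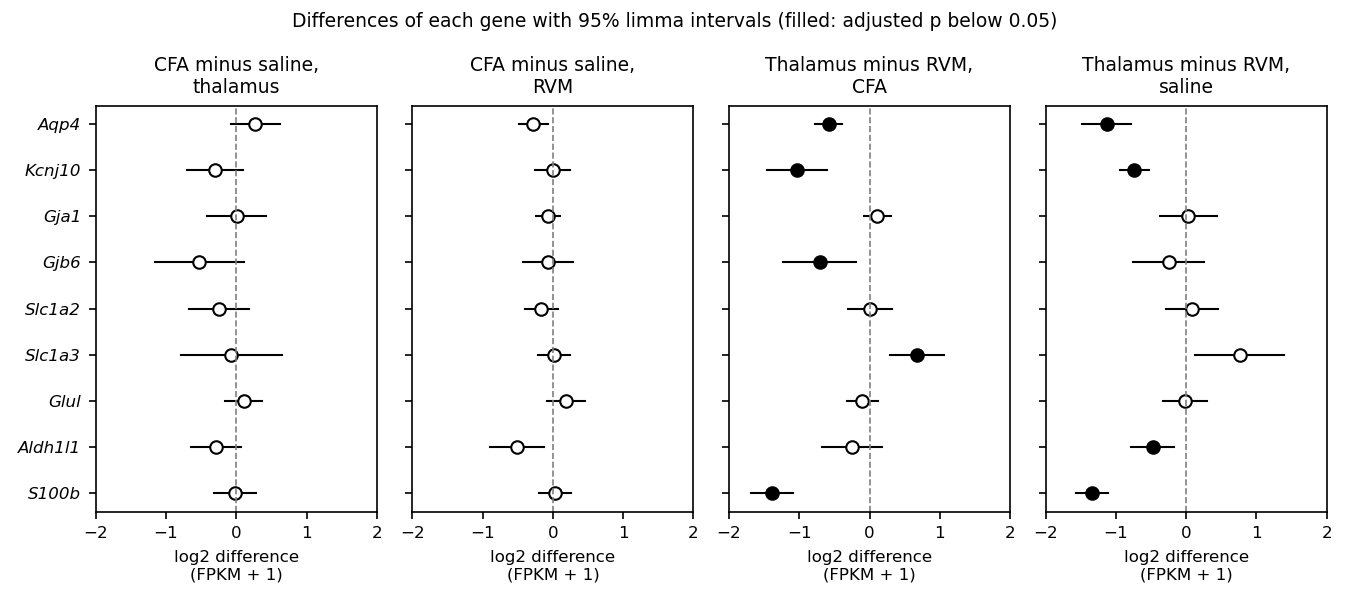
Log2 difference of each gene on the log2(FPKM + 1) scale (horizontal axis) with its limma 95% interval, for CFA minus saline in each region and thalamus minus RVM in each treatment; filled points have an adjusted p below 0.05. No CFA difference is filled, and the filled points between regions lie below 0 except Slc1a3 in CFA.

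Aqp4 encodes aquaporin 4, the main water channel of astrocyte endfeet. Its level was 196, 186 and 184 FPKM in thalamus CFA, 153, 131 and 190.1 in thalamus saline, 301, 285 and 264 in RVM CFA and 307, 363 and 361 in RVM saline (libraries 1, 2 and 3 throughout). Every thalamus library was below every RVM library, and in RVM every CFA library was below every saline library. Thalamus was lower than RVM by a log2 difference of -1.13 ± 0.146 in saline (a ratio of 0.457, adjusted p = 0.00149, limma) and -0.58 ± 0.0825 in CFA (0.667, adjusted p = 0.00398). With all libraries set to the same FPKM total, the CFA value was -0.24 with an adjusted p of 0.0566, so that call depended on the scaling. Within RVM the CFA difference was -0.28 ± 0.0855, with an unadjusted p of 0.015 and an adjusted p of 0.264 by limma. Within thalamus it was 0.27 ± 0.145 (adjusted p = 0.314), with 1 saline library, 190.1 FPKM, inside the CFA range. Leaving out 1 library moved it between 0.14 without saline 2 and 0.41 without saline 3, and voom gave 0.45, with no call. The difference between these CFA effects, thalamus minus RVM, was 0.55 ± 0.174 (95% interval 0.16 to 0.93), the single unadjusted p below 0.05 among the 9 genes at 0.00983, with an adjusted p of 0.371 by limma.

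Genes that anchor Aqp4 or share its endfoot site were called in both directions between the regions. Of 11 listed, 2 were higher and 2 lower in thalamus in saline, and 1 higher and 3 lower in CFA. The shares over all genes to read these and the later list counts between regions against are 45.3% in saline and 33% in CFA. For the list counts between CFA and saline the shares are 4.11% in thalamus (3.84% higher in CFA) and 0% in RVM. No list could therefore hold a call with CFA in RVM, and a short list can readily hold none in thalamus. The utrophin gene Utrn was lower in thalamus by -0.92 ± 0.143 in CFA and -0.88 ± 0.0705 in saline on the log2 scale. The syntrophin gene Sntb1 was higher in thalamus, at 4.53 ± 2.29 FPKM against 1.40 ± 0.169 in RVM with CFA, and at 8.0 ± 2.77 against 1.21 ± 0.294 with saline (SD, n = 3 each). Agrn, which encodes the basement membrane protein agrin, was higher in thalamus in saline by 0.67 ± 0.0894. With CFA, 0 of 11 passed in thalamus, where Agrn stood at 10.3 to 11.3 FPKM in CFA and 14.2 to 15.3 in saline (adjusted p = 0.0594), and 0 of 11 passed in RVM.

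Kcnj10 encodes Kir4.1, the inward-rectifying potassium channel of astrocytes and of some oligodendrocytes. Its level was 49.0, 56.8 and 74.2 FPKM in thalamus CFA, 65.5, 75.9 and 78.5 in thalamus saline, 134, 131 and 104 in RVM CFA and 122, 129 and 117 in RVM saline. All 6 thalamus libraries were below all 6 RVM libraries, and CFA and saline overlapped in both regions. The log2 difference of thalamus minus RVM was -1.03 ± 0.176 in CFA (a ratio of 0.488, adjusted p = 0.00701, limma) and -0.74 ± 0.0877 in saline (0.600, adjusted p = 0.00111). Without thalamus CFA 1 and 2, the libraries with high Ttr, the CFA difference was -0.71, with thalamus CFA 3 alone left in its group. For CFA minus saline the value was -0.30 ± 0.167 in thalamus (95% interval -0.70 to 0.10) and -0.003 ± 0.105 in RVM (-0.25 to 0.25). Kcnj10 was lowest in thalamus CFA 1 and 2, so leaving these libraries out must raise both differences. The CFA difference in thalamus was then 0.02, again with CFA 3 alone left.

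Among other genes of ion and bicarbonate transport, 0 of 12 passed between CFA and saline in thalamus and 0 of 11 in RVM. Between regions 3 were lower and 1 higher in thalamus in saline, and 2 lower and 1 higher in CFA. Slc12a2, the sodium-potassium-chloride cotransporter gene, stood at 36.9 ± 6.53 FPKM in thalamus and 81.3 ± 1.62 in RVM with CFA, and at 32.1 ± 3.80 and 82.3 ± 6.22 with saline (SD, n = 3 each).

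Gja1 encodes connexin 43 and Gjb6 connexin 30, the 2 main gap junction proteins of astrocytes. Gja1 stood at 117, 121 and 130.5 FPKM in thalamus CFA, 161, 105 and 109 in thalamus saline, 118, 108 and 115 in RVM CFA and 117, 131 and 112 in RVM saline. Apart from thalamus saline 1, the libraries of all groups lay within 105 to 131 FPKM. No comparison of Gja1 was called by limma as described above, and the 95% interval of thalamus minus RVM was -0.08 to 0.30 in CFA and -0.37 to 0.44 in saline. The CFA value, 0.11 ± 0.0791, depended on the scaling: it was 0.46 with an adjusted p of 0.00613 at the same FPKM total, and 0.33 with an adjusted p of 0.024 by voom.

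Gjb6 stood at 24.0, 28.2 and 45.0 FPKM in thalamus CFA, 35.1, 51.4 and 52.2 in thalamus saline, 51.8, 53.0 and 50.9 in RVM CFA and 57.1, 66.3 and 42.4 in RVM saline. Thalamus CFA lay below RVM CFA in every library, by a log2 difference of -0.71 ± 0.217 (a ratio of 0.610, adjusted p = 0.0462, limma), while in saline the regions overlapped and the difference was -0.25 ± 0.211 (adjusted p = 0.367). The call in CFA held in 1 of the 6 fits without a library and in 4 of 8 other settings. Without thalamus CFA 1 and 2 the value was -0.20, with CFA 3 alone left in that group. Within thalamus the CFA difference was -0.53 ± 0.264 (95% interval -1.16 to 0.11), and -0.02 without CFA 1 and 2. Gjb6 was lowest in CFA 1 and 2, so leaving them out must raise both differences. The summed level of 8 choroid plexus and ependymal genes ranged over 21.2 to 10244 FPKM in thalamus CFA, with none of the 8 at 0, against 8.72 to 42.0 in thalamus saline, and its part in the Gjb6 and Kcnj10 values was not tested.

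Of 8 other connexins and partners, 4 were lower in thalamus in CFA and 5 in saline, with none higher. Gjb1 and Gjc3, which encode connexins of oligodendrocytes or their precursors, and Gjd2, the connexin 36 gene of neurons, were called in both treatments. Gjb1 averaged 16.2 ± 2.55 FPKM in thalamus and 72.6 ± 6.35 in RVM with CFA, and 17.2 ± 3.40 and 83.9 ± 8.82 with saline (SD, n = 3 each). Between CFA and saline 0 of 8 passed in either region. The smallest p in RVM belonged to Gjc3, at 38.6 to 45.8 FPKM in CFA and 57.1 to 65.1 in saline (adjusted p = 0.242).

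Slc1a2 encodes GLT-1 and Slc1a3 encodes GLAST, the glutamate transporters of astrocytes. Slc1a2 stood at 208, 259.9 and 212 FPKM in thalamus CFA, 339, 234 and 238 in thalamus saline, 250.3, 229 and 197 in RVM CFA and 235, 273 and 247 in RVM saline. The groups overlapped in every comparison and none was called, with thalamus minus RVM at 0.01 ± 0.13 in CFA (95% interval -0.31 to 0.32) and 0.09 ± 0.155 in saline (-0.29 to 0.46). Slc1a3 stood at 159, 216 and 140.1 FPKM in thalamus CFA, 273, 151 and 135 in thalamus saline, 106, 109 and 101 in RVM CFA and 94.5, 120.2 and 99.1 in RVM saline. All thalamus libraries were above all RVM libraries. Its log2 difference was 0.68 ± 0.161 in CFA (a ratio of 1.60, adjusted p = 0.0207, limma) and 0.76 ± 0.264 in saline (1.70, adjusted p = 0.0535), so the difference passed in CFA and missed the threshold in saline. The CFA call was lost without any 1 of the RVM CFA libraries. In saline it passed in 2 of 6 fits without a library and in 4 of 8 other settings. Thalamus saline 1, the library with low Tcf7l2 and high Slc17a7, was the highest of all 12 in Slc1a2, Slc1a3 and Gja1, and without it the saline difference of Slc1a3 was 0.45 with an adjusted p of 0.0204. CFA minus saline of Slc1a3 was -0.07 ± 0.298 in thalamus (95% interval -0.79 to 0.65) and 0.02 ± 0.0942 in RVM.

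The ratio of the transporters within a library does not depend on the scaling of that library. It does rest on the partial Slc1a2 model described above, so neither its level nor its regional difference covers whole Slc1a2 transcripts. Slc1a2 over Slc1a3 was 1.31, 1.20 and 1.51 in thalamus CFA and 1.24, 1.55 and 1.76 in thalamus saline, against 2.37, 2.10 and 1.95 in RVM CFA and 2.48, 2.27 and 2.49 in RVM saline. No thalamus library reached an RVM library. The log2 ratio was lower in thalamus by -0.68, with p = 0.005 by an exact two-sided permutation test over 12 libraries (400 arrangements within treatment), the smallest p this design can give, and 0.03 adjusted over 6 ratio tests. Without each library in turn the difference ran between -0.74 and -0.61. CFA minus saline was -0.175 (exact permutation p = 0.1, adjusted 0.2).

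Gjb6 over Gja1 ranged over 0.205 to 0.345 for thalamus CFA, 0.219 to 0.488 for thalamus saline, against 0.439 to 0.491 in RVM CFA and 0.377 to 0.508 in RVM saline. Its log2 difference of thalamus minus RVM, -0.57, had an exact permutation p of 0.045 and an adjusted p of 0.135 over the 6 ratio tests. Kcnj10 over Aqp4 ranged over 0.250 to 0.404 for thalamus CFA, 0.413 to 0.580 for thalamus saline, against 0.392 to 0.460 in RVM CFA and 0.324 to 0.395 in RVM saline. The mean ratio was 0.320 in thalamus CFA and 0.433 in RVM CFA, against 0.474 in thalamus saline and 0.358 in RVM saline. Thalamus minus RVM was -0.04 (exact permutation p = 0.87), a mean over treatments with opposite directions. All 3 thalamus CFA libraries were below all 3 thalamus saline libraries, a comparison of 3 against 3 whose p cannot go below 0.1. Every thalamus saline library was also above every RVM saline library. CFA minus saline over both regions was -0.15 (exact permutation p = 0.455), a mean over regions with opposite directions. The difference between these directions was not tested for the ratio.

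**Figure D3:**
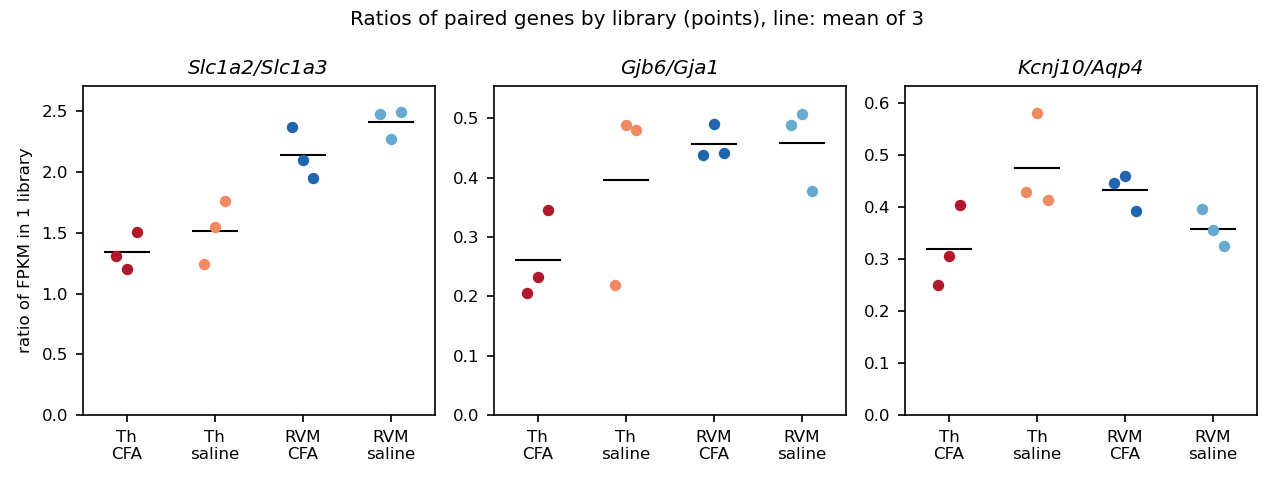
Ratio of FPKM of 2 genes with a related role in each library (vertical axis, from 0), for Slc1a2 over Slc1a3, Gjb6 over Gja1 and Kcnj10 over Aqp4; points are libraries and lines the mean of 3. For Slc1a2 over Slc1a3 all thalamus (Th) libraries lie between 1.20 and 1.76 and all RVM libraries between 1.95 and 2.49. The Slc1a2 values come from a partial gene model.

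Glul encodes glutamine synthetase, which turns the glutamate taken up into glutamine. It stood at 611, 639.7 and 706 FPKM in thalamus CFA, 657, 603 and 559.7 in thalamus saline, 702, 720.2 and 676 in RVM CFA and 691, 656 and 510.2 in RVM saline. The groups overlapped in every comparison, and none was called. The log2 difference of CFA minus saline was 0.11 ± 0.109 in thalamus (95% interval -0.16 to 0.37) and 0.19 ± 0.116 in RVM (-0.09 to 0.46). Thalamus minus RVM was -0.10 ± 0.091 in CFA, which turned to 0.24 with an adjusted p of 0.0482 when libraries were set to the same FPKM total, and -0.02 ± 0.131 in saline.

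Of 14 other genes for handling glutamate, GABA, glycine and glutamine, 1 rose with CFA in thalamus. This was Slc38a5, a glutamine transporter gene, at 4.38 ± 0.67 FPKM in CFA and 1.61 ± 0.352 in saline, with a log2 difference of 1.04 ± 0.162 (SE; adjusted p = 0.0191, limma). In RVM it stood at 3.69 to 5.42 FPKM in CFA and 1.70 to 2.65 in saline (adjusted p = 0.242), and 0 of 14 passed there. Between regions 4 were lower and 0 higher in thalamus in CFA, and 2 lower and 3 higher in saline. The glycine transporter gene Slc6a9 averaged 44.0 ± 11.1 FPKM in thalamus and 97.5 ± 3.64 in RVM with CFA, and 59.6 ± 10.2 and 113.8 ± 2.86 with saline (SD, n = 3 each). Slc7a10, an amino acid exchanger gene of astrocytes, was lower by -1.18 ± 0.109 in CFA and -0.76 ± 0.153 in saline.

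Aldh1l1 encodes a folate enzyme used as an astrocyte marker. It stood at 6.63, 4.68 and 5.97 FPKM in thalamus CFA, 7.37, 6.40 and 7.90 in thalamus saline, 5.88, 8.87 and 6.53 in RVM CFA and 8.97, 12.1 and 10.3 in RVM saline. The RVM saline libraries were the highest of the 4 groups and overlapped none of the others. Thalamus was lower than RVM by -0.47 ± 0.127 in saline (a ratio of 0.720, adjusted p = 0.0222, limma), a call kept in 3 of 6 fits without a library and lost with all libraries at the same FPKM total (adjusted p = 0.0978) and with the replicate number as a block (adjusted p = 0.0543). In CFA the difference was -0.25 ± 0.179 (adjusted p = 0.309). Within RVM the log2 difference of CFA minus saline was -0.51 ± 0.16, with an unadjusted p of 0.0157 and an adjusted p of 0.264 by limma. Without RVM CFA 2 it was -0.66 with an adjusted p of 0.0583. Within thalamus it was -0.29 ± 0.146 (adjusted p = 0.292). Aqp4 and Aldh1l1 were the members whose RVM groups did not overlap, both lower in CFA, beside 12.5% of genes lower without overlap.

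S100b encodes a calcium-binding protein that astrocytes and maturing oligodendrocytes make. It stood at 727, 849.5 and 922 FPKM in thalamus CFA, 910.0, 798 and 821 in thalamus saline, 2343, 2171 and 2018 in RVM CFA and 2300.1, 1939 and 2167 in RVM saline. The regions were far apart, and CFA and saline overlapped in each. Thalamus was lower by -1.39 ± 0.124 in CFA (a ratio of 0.382, adjusted p = 0.00102, limma) and -1.34 ± 0.0965 in saline (0.395, adjusted p = 0.000229). CFA minus saline was -0.02 ± 0.125 in thalamus (95% interval -0.32 to 0.28) and 0.03 ± 0.0932 in RVM (-0.19 to 0.25). All 8 of 8 oligodendrocyte genes were also lower in thalamus in both treatments, with summed levels of 4814 to 5677 FPKM for thalamus CFA, 4944 to 7715 for thalamus saline, against 17164 to 18118 in RVM CFA and 23142 to 26338 in RVM saline. None of these genes was at 0 in any library, and their part in the S100b and Kcnj10 differences was not tested.

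Of 8 other S100 and cytosolic enzyme genes tested, S100a6, a calcium-binding protein gene, rose with CFA in thalamus. It averaged 37.6 ± 12.7 FPKM in CFA and 4.40 ± 2.10 in saline (SD, n = 3 each), a log2 difference of 2.85 ± 0.332 (adjusted p = 0.00626, limma). Between regions 3 were lower and 1 higher in thalamus in CFA, and 5 lower and 0 higher in saline. S100a1, a relative of S100b, averaged 80.2 ± 11.0 FPKM in thalamus and 188.6 ± 7.34 in RVM with CFA, and 79.1 ± 3.58 and 205 ± 6.96 with saline. The aldehyde dehydrogenase gene Aldh1a1 was lower in thalamus by -2.33 ± 0.351 in CFA and -2.75 ± 0.271 in saline.

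Among 11 genes of energy and lactate supply, 1 rose with CFA in thalamus. Pfkfb3, a regulator of glycolysis, averaged 15.9 ± 1.72 FPKM in CFA and 8.11 ± 1.70 in saline (SD, n = 3 each; adjusted p = 0.0302, limma), and 0 of 11 passed in RVM. Between regions 7 were lower and 0 higher in thalamus in CFA, and 6 lower and 1 higher in saline. Aldoc, the aldolase of astrocytes, which also stands in the identity list, was lower by -1.30 ± 0.23 in CFA and -1.06 ± 0.138 in saline. Of the 12 identity genes, 6 were lower and 2 higher in thalamus in CFA, and 5 lower and 1 higher in saline. Gpr37l1, a receptor gene of astrocytes, was lower by -0.52 ± 0.0664 in CFA and -0.48 ± 0.076 in saline, and the phospholipid phosphatase gene Plpp3 was higher by 0.48 ± 0.0738 and 0.70 ± 0.0879.

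Within groups the 9 genes did not vary as a single set. After each group's mean was subtracted, the 36 pairs of the 9 genes had Pearson correlations between -0.50 and 0.90 over 12 libraries, 21 positive and 15 negative, with a median of 0.10. These points share library preparation and depth, and the values describe these libraries alone. The highest were Slc1a2 with Slc1a3 (r = 0.90, Spearman's rho 0.797) and Kcnj10 with Gjb6 (r = 0.81, rho 0.776). Gja1 varied most like Slc1a3, with r = 0.75 and rho 0.559. Without the 2 libraries farthest out, r was 0.74 for Slc1a2 with Slc1a3 and 0.60 for Kcnj10 with Gjb6, whereas it was 0.39 for Gja1 with Slc1a3, so that relation rested on thalamus saline 1 and 2. Aqp4 had r = 0.45 with Aldh1l1 and -0.42 with Glul, and it had 0.13 with Kcnj10, its partner at the endfoot. Slc1a3 and Gjb6 had the lowest value, -0.50.

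**Figure D4:**
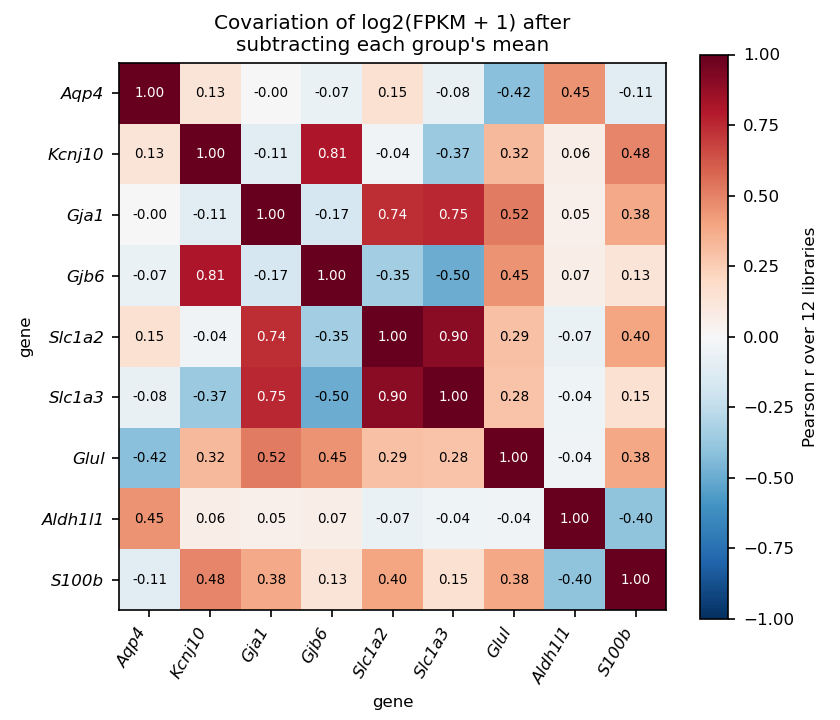
Pearson correlation (colour and printed value) between each pair of the 9 genes over 12 libraries, after each group's mean of log2(FPKM + 1) was subtracted. Pairs among Slc1a2, Slc1a3 and Gja1 had r of 0.74 to 0.90, and Kcnj10 with Gjb6 had 0.81. Without thalamus saline 1 and 2, Gja1 with Slc1a3 had r of 0.39.

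All 9914 genes averaging 5 FPKM or more, members and unnamed genes included, were ranked by likeness to the mean of the 9 genes. By this measure the named non-members most like it were Rpl22l1 (r = 0.94), Mmd2 (0.92), Mfsd2a (0.92), Mrm2 (0.90) and Med6 (0.90), over 12 libraries. The mean levels of these genes were 98.1, 95.7, 15.8, 5.84 and 9.84 FPKM. They head a long ranking over few libraries, and a relation to the 9 genes was not tested. Each member's own r with the mean of the other 8 ran from -0.03 for Gjb6 to 0.59 for Gja1. The mean over the 9 genes of log2(FPKM + 1) ranged over 6.84 to 7.04 for thalamus CFA, 6.96 to 7.18 for thalamus saline, against 7.21 to 7.36 in RVM CFA and 7.31 to 7.52 in RVM saline.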

How the data were processed

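Values are FPKM (fragments scaled to gene length and library size) as the authors deposited them, in 1 table with gene lengths and coordinates, per the file headers. Per the labels' protocols, Trizol was used for extraction and an Illumina TruSeq kit for the libraries. Aligner, counter and genome build: not given in the sources used here. FPKM multiplied by length was a whole multiple of 1 step per library for 100% of values within a tolerance of 0.01, taken as reads. The library total implied by the deposited FPKM was 0.934 to 1.17 times the recovered total, so a further scaling between libraries had been applied. By group this was 1.11 to 1.17 in thalamus CFA, 0.961 to 1.04 in thalamus saline, 0.955 to 0.989 in RVM CFA and 0.934 to 0.949 in RVM saline.

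Tissue and treatment labels gave the groups, and all 12 columns of values were matched to samples (0 were not). Values were analysed as log2(FPKM + 1), a scale that understates changes of low genes, with limma 3.58.1 in R 4.3.3, for genes averaging 1 FPKM or more in the libraries compared (in each region for the interaction). The fits used only the groups compared, or all 12 libraries for the interaction, and p-values were adjusted by Benjamini-Hochberg over all genes tested, with calls below 0.05. Exact two-sided permutation tests served for ratios within libraries. For each comparison the main fit, the fit with a replicate block and the voom fit were first tested on simulated data. The simulated noise was the same in every library, unlike in these data. The other settings and the permutation tests were not tested in this way. Intervals come from the spread between libraries.

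The members and lists were chosen with earlier results of these data known. In each list, up to 4 genes that passed, by smallest p, were eligible for naming, otherwise the 2 with the smallest p. Of 153 list symbols 152 matched. Some genes eligible for naming are not reported here. Alternatives were a pseudocount of 0.1, no filter, a filter at 5 FPKM, the same FPKM total in each library, median-of-ratios scaling, the replicate number as a block, a single model of 12 libraries, limma-voom on the recovered reads, and leaving out each library. The voom fit took the recovered totals as library sizes, so it left out the further scaling of the deposited FPKM. Fits without 2 libraries (thalamus CFA 1 and 2, or thalamus saline 1 and CFA 1) were chosen after seeing the data. Where a group then had 1 library, it was assumed to vary like the other groups.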

Additional observations from a re-analysis of the deposited data

How the results depend on the processing

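None of the 9 genes was called with CFA in either region, or in the interaction, under any of the settings run, which include leaving out each library and the fits without 2 libraries. Between regions in saline the count of 4 genes ran between 3 and 5. In CFA the count of 5 was 3 without any 1 RVM CFA library (range over left-out libraries 3 to 5) and 3 without thalamus CFA 1 and 2. Aqp4, Kcnj10 and S100b kept their direction in both treatments under every setting run. The all-gene count for CFA in thalamus was 605 and became 298 at a minimum of 5 FPKM, 1932 in a single model of 12 libraries, 309 to 547 without 1 library, 663 with voom and 66 without CFA 1 and 2. The count of 0 for CFA in RVM became 484 without RVM CFA 2 and at most 2 without another library. The interaction count of 0 became 11 with no filter, 0 to 15 without 1 library and 146 without thalamus saline 1 and CFA 1.

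Deviations of same-numbered libraries correlated at 0.06 to 0.36 in thalamus and -0.03 to -0.01 in RVM, and at -0.04 to 0.20 between regions. These values do not settle whether the replicate numbers pair the samples. With the number as a block, 0 of 9 genes were called with CFA in either region and in the interaction. Between regions 3 were called in saline and 4 in CFA. Over all genes 1338 were then called with CFA in thalamus (755 higher), against 605 (565 higher) without the block.

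Setting all libraries to the same FPKM total put the median of all genes at 0.30 for thalamus minus RVM in CFA and 0.14 in saline, against 0.00 and -0.02 before, so members are to be read relative to it. Of the calls, 5118 of 6134 were then higher in thalamus in CFA and 4566 of 6569 in saline, against 2206 of 4880 and 3250 of 6523 before. With voom, on recovered totals without the deposited scaling, it was 3736 of 5179 in CFA and 3781 of 6368 in saline. The signs below changed for differences that were not called in the analysis reported above, and the cause was not tested. Between regions in CFA, Glul was called at the same FPKM total, and Gja1 at the same FPKM total and with voom, without a change of sign. With the same FPKM total in every library, the sign turned as follows. For CFA minus saline in thalamus Slc1a3 stood at 0.10 and S100b at 0.14, and for CFA minus saline in RVM Kcnj10 stood at 0.0012, and for the interaction Slc1a2 stood at 0.085, Slc1a3 at 0.077, Glul at 0.081 and S100b at 0.11, and for thalamus minus RVM in saline Glul stood at 0.16, and for thalamus minus RVM in CFA Aldh1l1 stood at 0.046 and Glul at 0.24. With limma-voom, the sign turned as follows. For CFA minus saline in thalamus Slc1a3 stood at 0.11 and S100b at 0.16, and for CFA minus saline in RVM Kcnj10 stood at 0.047, and for the interaction Slc1a2 stood at 0.056, Slc1a3 at 0.050, Glul at 0.051 and S100b at 0.081, and for thalamus minus RVM in saline Glul stood at 0.059, and for thalamus minus RVM in CFA Glul stood at 0.11. With median-of-ratios scaling, the sign turned as follows. For CFA minus saline in thalamus S100b stood at 0.044, and for CFA minus saline in RVM Kcnj10 stood at 0.025.

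Leaving out 1 library, or 2, turned the sign of these differences, none of them called in the analysis reported above. CFA minus saline in thalamus ranged over -0.34 to 0.28 for Slc1a3, -0.10 to 0.23 for Gja1, -0.46 to 0.023 for Kcnj10 and -0.10 to 0.13 for S100b. CFA minus saline in RVM ranged over -0.054 to 0.12 for Slc1a3, -0.24 to 0.075 for Gjb6, -0.070 to 0.12 for Kcnj10 and -0.039 to 0.084 for S100b. The interaction ranged over -0.18 to 0.15 for Slc1a2, -0.35 to 0.27 for Slc1a3, -0.029 to 0.31 for Gja1, -0.72 to 0.049 for Gjb6, -0.46 to 0.026 for Kcnj10, -0.17 to 0.051 for Glul and -0.13 to 0.10 for S100b. Thalamus minus RVM in saline ranged over -0.089 to 0.18 for Slc1a2, -0.16 to 0.14 for Gja1 and -0.15 to 0.064 for Glul. Thalamus minus RVM in CFA ranged over -0.094 to 0.087 for Slc1a2 and -0.16 to 0.013 for Glul.

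Without each library in turn, the log2 ratio of Slc1a2 to Slc1a3 for CFA minus saline ranged over -0.24 to -0.12, of Gjb6 to Gja1 for thalamus minus RVM over -0.68 to -0.38, and of Kcnj10 to Aqp4 for thalamus minus RVM over -0.13 to 0.05. The call of Slc1a2 to Slc1a3 between regions held without any 1 library, and with log2(FPKM + 1) in the ratio.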
